A study of Mus musculus with 2 samples.

Results

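The expression of 10 genes of the vascular basement membrane was followed through the cells of the mouse abdominal aorta: the collagen IV chains Col4a1 and Col4a2, the laminin chains Lama4, Lama5, Lamb1, Lamb2 and Lamc1, the nidogens Nid1 and Nid2, and the perlecan gene Hspg2. They were chosen by name, and all were found among the 33696 genes listed in both count matrices. The matrices held droplet-based single-cell RNA sequencing of suprarenal abdominal aortas taken on day 28 from 5-month-old male C57BL/6J mice. Control mice received normal saline. AngII+HS mice received angiotensin II at 1500 ng/kg/min from an implanted minipump and drank water with 0.9% NaCl and 0.2% KCl. Each condition was 1 library of pooled tissue, from 5 mice according to the design text, although another label speaks of 1 control and 2 treated animals. With 1 library per condition no test of the condition was possible. Every interval below is a 95% interval for counting error alone and does not cover variation between mice, and a ratio compares these libraries rather than the conditions in general.

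The basement membrane is the thin sheet of matrix on which endothelial cells rest and which wraps each smooth muscle cell, pericyte and Schwann cell. The collagen α1(IV) and α2(IV) chains wind into a heterotrimer that assembles into the load-bearing network of the sheet. Laminins are heterotrimers of an α, a β and a γ chain that polymerise at the cell surface and bind integrins and dystroglycan. Laminins with the α4 chain (Lama4) or the α5 chain (Lama5), joined to β1 (Lamb1) or β2 (Lamb2) and to γ1 (Lamc1), are the laminins of vessels, whereas the α2 chain (Lama2) is known for muscle and peripheral nerve. Nidogens and the heparan sulfate proteoglycan perlecan connect the laminin and collagen IV networks.

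Col4a1 and Col4a2 lie head to head on chromosome 8. In GENCODE vM39 on GRCm39, Col4a1 spans 11248423 to 11362826 on the minus strand and Col4a2 spans 11362471 to 11499287 on the plus strand, so that the annotated 5′ ends overlap by 356 bases. Their promoter windows are shown because these genes shared more of their pattern over cell classes than any other pair of the set. Each window covers 250 bases before and 50 bases after the RefSeq start (GRCm38.p6, Col4a1 at chr8:11312777-11313076 on the minus strand and Col4a2 at chr8:11312555-11312854 on the plus strand). Capitals mark the 78 bases that both windows contain, read from opposite strands.
Col4a1: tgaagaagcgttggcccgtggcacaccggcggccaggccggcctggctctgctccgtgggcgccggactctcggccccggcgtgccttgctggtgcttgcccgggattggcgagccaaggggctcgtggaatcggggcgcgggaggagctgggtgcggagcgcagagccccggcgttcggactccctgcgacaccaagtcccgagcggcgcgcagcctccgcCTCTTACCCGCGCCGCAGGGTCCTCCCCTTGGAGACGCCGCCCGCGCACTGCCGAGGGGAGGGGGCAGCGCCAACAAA
Col4a2: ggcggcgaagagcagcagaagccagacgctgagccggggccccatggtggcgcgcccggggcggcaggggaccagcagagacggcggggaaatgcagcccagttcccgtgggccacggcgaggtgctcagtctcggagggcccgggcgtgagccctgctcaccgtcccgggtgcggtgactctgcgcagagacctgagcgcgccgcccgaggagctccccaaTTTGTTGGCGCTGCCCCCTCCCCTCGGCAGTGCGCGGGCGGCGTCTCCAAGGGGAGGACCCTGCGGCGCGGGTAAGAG
The RefSeq starts of the pair are 21 bases apart. Since 3′ tags are counted, the 5′ overlap lies away from the sequence that is read.

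The windows of the laminin β chains are shown because Lamb1 was higher and Lamb2 lower in AngII+HS over all vascular endothelial cells. They come from the same table (Lamb1 at chr12:31265043-31265342 and Lamb2 at chr9:108479612-108479911, both on the plus strand), and capitals mark the GC box GGGCGG or its reverse CCGCCC.
Lamb1: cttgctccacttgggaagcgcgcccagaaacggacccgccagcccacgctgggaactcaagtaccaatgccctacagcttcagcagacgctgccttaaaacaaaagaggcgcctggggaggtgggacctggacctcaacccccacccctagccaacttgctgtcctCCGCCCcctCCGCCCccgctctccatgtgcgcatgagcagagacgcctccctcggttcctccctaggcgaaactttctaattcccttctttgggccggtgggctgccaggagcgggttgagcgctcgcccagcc
Lamb2: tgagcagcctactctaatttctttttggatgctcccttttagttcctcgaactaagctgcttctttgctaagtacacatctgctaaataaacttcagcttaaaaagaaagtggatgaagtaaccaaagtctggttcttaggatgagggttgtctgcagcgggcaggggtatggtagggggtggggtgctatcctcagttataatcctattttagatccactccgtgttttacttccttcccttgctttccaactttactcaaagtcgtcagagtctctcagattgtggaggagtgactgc
The Lamb1 window held 2 matches to the GC box and the Lamb2 window 0, and their G and C contents were 63.7% and 44.0%. Of the 7 genes of the set with a window in the table, 6 held a GC box, against 35.7% of all 32851 windows. The only match of the Col4a1 window lies in the bases it shares with the Col4a2 window, so these windows are not independent. The CCAAT box, searched as CCAAT or ATTGG, was present in 4 of the 7 and in 37.4% of all windows, and the TATA box, searched as TATAAA or TTTATA, in 0 of the 7 and in 13.6% of all windows. These matches describe the letters of the windows and no binding was measured. The remaining genes lie on chromosome 10 (Lama4, 38841141 to 38998403), chromosome 2 (Lama5, 179818166 to 179867712), chromosome 12 (Lamb1, 31315030 to 31379658), chromosome 9 (Lamb2, 108356935 to 108367729), chromosome 1 (Lamc1, 153094597 to 153208774), chromosome 13 (Nid1, 13612071 to 13686860), chromosome 14 (Nid2, 19801298 to 19861855) and chromosome 4 (Hspg2, 137196079 to 137298231) in the same GRCm39 annotation.

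The barcode list deposited with each library fitted the count matrix of the other, and the files alone do not show whether lists or matrices were exchanged. Each matrix is named by the label it was deposited under, and an exchange of matrices would turn the sign of every ratio. The library labelled Control held 47.7% VSMCs, 0.964% neutrophils and 4.84% macrophages, and that labelled AngII+HS 2.52%, 23.6% and 22.7%. The study reported the same directions for its AngII+HS group, with fewer VSMCs and more macrophages and neutrophils than in its control group. After filtering and removal of predicted doublets, 10269 Control cells with a median of 7274 unique molecular identifiers (UMIs) and 19734 AngII+HS cells with a median of 3066 were kept. The level of a gene is its UMIs per 1000000 UMIs of all cells of a class in a library (CPM). It allows a gene to be compared between classes and libraries. Where different genes are set side by side, only their counted UMIs are compared, since how well each gene was captured was not measured. Vascular endothelial cells (VECs) numbered 797 in Control and 1176 in AngII+HS, lymphatic endothelial cells (LECs) 138 and 157, vascular smooth muscle cells (VSMCs) 4901 and 497, myelinating Schwann cells 53 and 96, non-myelinating Schwann cells 96 and 353, and fibroblasts 2607 and 4717. Arterial VECs made up 61.1% of VECs in Control and 33.2% in AngII+HS, whereas capillary VECs made up 18.2% in Control and 37.2% in AngII+HS and venous VECs 20.7% and 29.6%. Among the defining markers, the gap junction gene Gja5 stood at 548 and 533 CPM in arterial VECs and at no more than 10.8 CPM in the other subtypes, Gpihbp1 at 1017 and 762 CPM in capillary VECs, and Selp at 4232 and 2636 CPM in venous VECs, although Selp was also present in arterial VECs at 991 and 1090 CPM and in LECs at 1053 and 237 CPM. Venous VECs also held the lymphatic gene Prox1 at 119 and 27.5 CPM and Gpihbp1 at 17.0 and 83.1 CPM, and the part of these in the venous ratios was not tested. Prox1 stood at 894 and 886 CPM in LECs, the periaxin gene Prx at 1050.5 and 1171 CPM in myelinating Schwann cells, and Scn7a at 2683 and 2190 CPM in non-myelinating Schwann cells. A mural subcluster of 43 and 95 cells is called pericyte-like: it carried Abcc9 at 527 and 735 CPM and Notch3 at 779 and 1080 CPM, but also the smooth muscle genes Acta2 at 11954 and 6656 CPM and Myh11 at 2687 and 1555 CPM. Most AngII+HS cells of that class had high doublet scores, and removing double the number of predicted doublets left 31 and 8 of them.

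Free RNA set the lower limit of what can be read. T and B cells, which should not make a basement membrane, showed 18.6 and 24.7 CPM of Col4a1, 15.5 and 21.1 CPM of Col4a2, 19.6 and 18.4 CPM of Hspg2 and 12.4 and 8.30 CPM of Lamb2 in Control and AngII+HS. Lamb1 and Nid2 were at 0 UMIs in Control T and B cells and at 1.38 and 1.58 CPM in those of AngII+HS. Lamc1 did not follow this pattern, with 105 and 124 CPM in T and B cells but 3.68 and 13.4 CPM in neutrophils, so that its level in lymphocytes was not that of background.

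**Figure D1:**
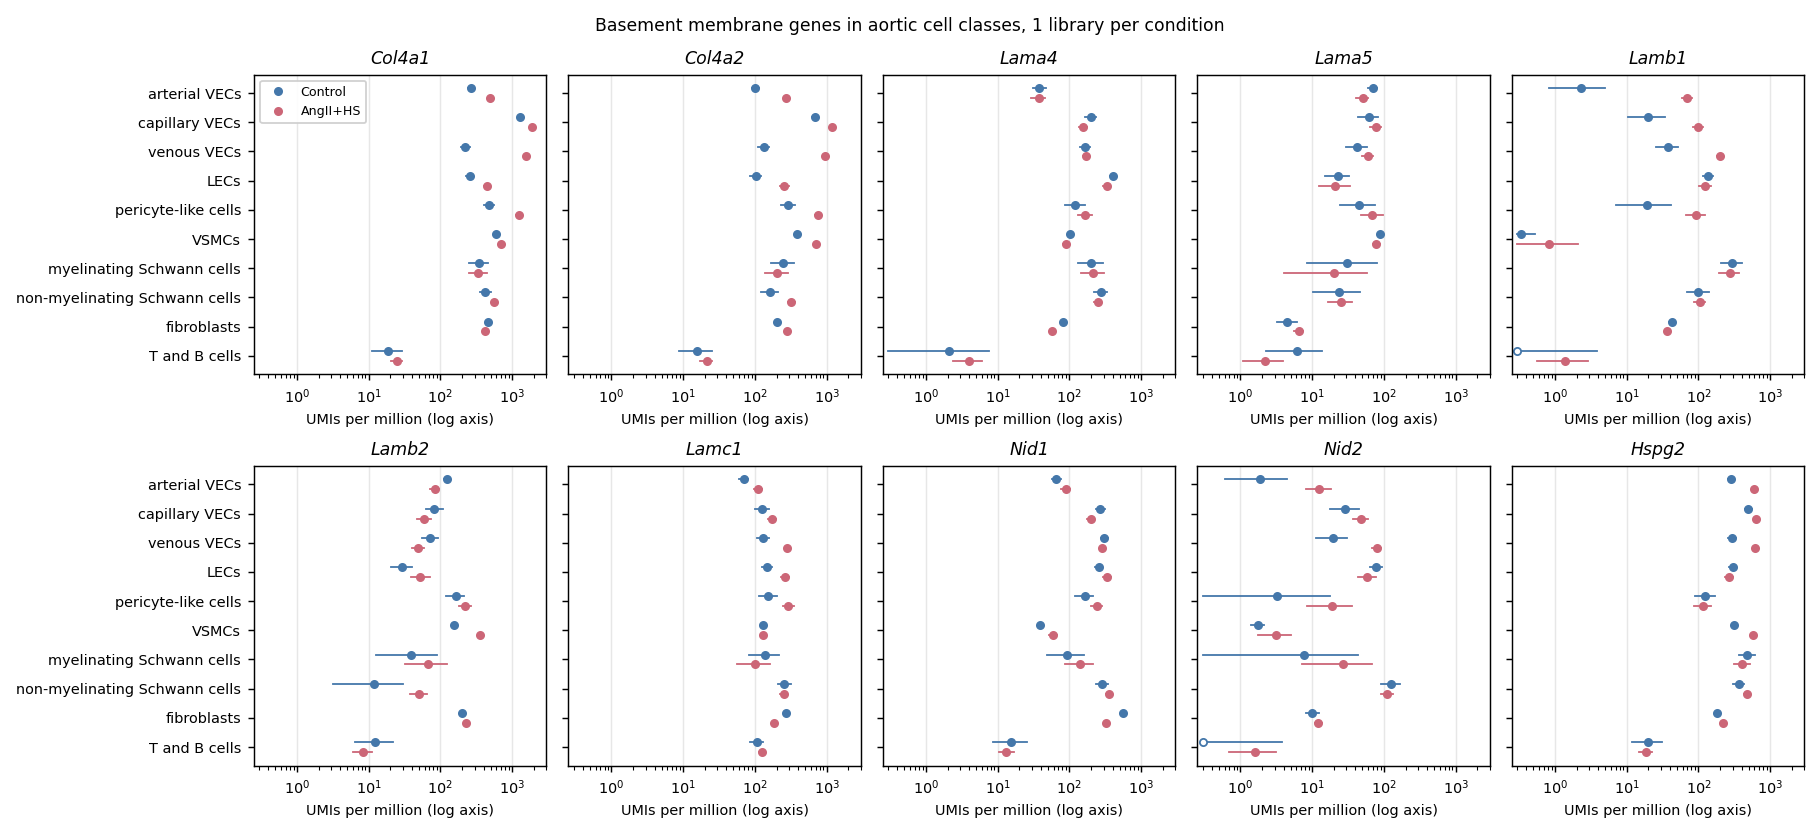
Level of each gene (CPM, log axis) in 9 cell classes and in T and B cells, with Control in blue and AngII+HS in red. Points are sums over the cells of 1 library, bars are 95% counting intervals, and open points on the left edge are classes with 0 UMIs. In Control venous VECs held the lowest Col4a1 level of the 9 classes (223 CPM), and in AngII+HS the level next to the highest (1553 CPM).

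Expression of the collagen IV chains was higher in every VEC subtype of the AngII+HS library than in Control, and most in venous VECs. Col4a1 went from 415 to 1246 CPM over all VECs, a log2 ratio of 1.59 (1.51 to 1.66), and Col4a2 from 201 to 764 CPM, a log2 ratio of 1.93 (1.82 to 2.04). In T and B cells the same genes differed by 0.41 and 0.45 on the log2 scale, with intervals that included 0. Neutrophils held 11.0 and 38.1 CPM of Col4a1 (1.79, 0.22 to 4.08, from 3 UMIs in Control). Their Col4a2 was at 29.4 and 48.6 CPM, with an interval that included 0. Macrophages were at 26.6 and 20.2 CPM of Col4a1 and at 20.2 and 16.0 CPM of Col4a2. Over all VECs 6 of the 10 genes lay above a log2 ratio of 0.5 (Col4a1, Col4a2, Lamb1, Lamc1, Nid2 and Hspg2) and 1 lay below −0.5 (Lamb2). Among the 13014 genes with at least 20 UMIs in VECs, 21% lay above 0.5 and 17.4% below −0.5. The median log2 ratio was 1.01 for the 10 genes and 0.05 for all genes measured. Because the subtypes changed in proportion, the VEC values were also computed with each subtype weighted by its part of the Control UMIs. Col4a1 then stood at 1.16 and Col4a2 at 1.48, and the number of genes above 0.5 was again 6.

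**Figure D2:**
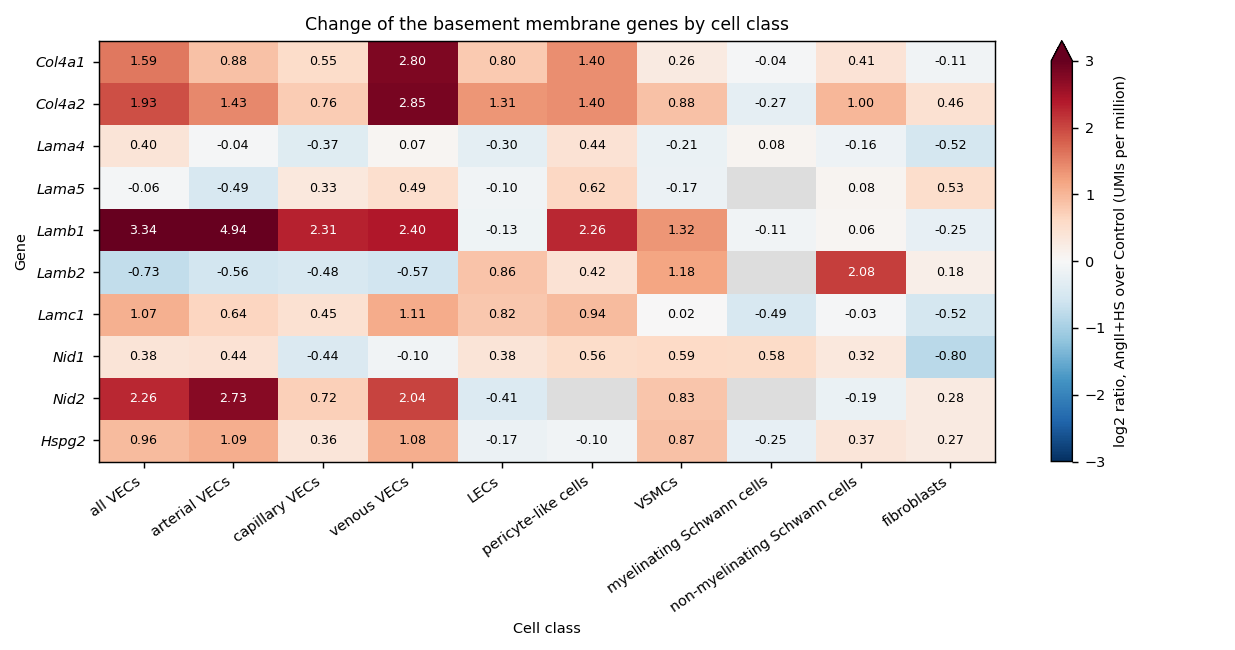
Log2 ratio of AngII+HS over Control for each gene (rows) in all VECs and in 9 cell classes (columns), with red for higher and blue for lower in AngII+HS and grey where fewer than 20 UMIs were counted over both libraries. Collagen IV was above 0.5 in every VEC subtype, LECs and pericyte-like cells, while Lamb1 and Lamb2 had opposite signs in each VEC subtype.

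Col4a1, which encodes the α1(IV) chain, was most abundant in capillary VECs of both libraries, at 1281 CPM in Control and 1869 CPM in AngII+HS (log2 ratio 0.55, 0.43 to 0.66). In venous VECs it was at 223 CPM (193 to 257) in Control and at 1553 CPM (1502 to 1605) in AngII+HS, a log2 ratio of 2.80 (2.59 to 3.01). Arterial VECs were at 264 and 487 CPM, a log2 ratio of 0.88 (0.74 to 1.02). In Control, the venous, lymphatic and arterial endothelial levels had overlapping intervals at the lower end of the 9 classes. In AngII+HS the venous level was second only to the capillary level, and the intervals of this pair did not overlap. LECs went from 256 to 445 CPM (log2 ratio 0.80, 0.58 to 1.01) and pericyte-like cells from 472 to 1243 CPM (1.40, 1.13 to 1.66). The remaining classes of the 9 had log2 ratios within ±0.5. VSMCs were at 593 and 710 CPM, fibroblasts at 456 and 422 CPM and myelinating Schwann cells at 348 and 337 CPM. Non-myelinating Schwann cells were at 425 and 564 CPM (0.41, 0.15 to 0.68), with an interval that overlapped that of capillary VECs.

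Col4a2, which encodes the partner α2(IV) chain, was likewise highest in capillary VECs of both libraries and next in venous VECs in AngII+HS. It stood at 694 and 1174 CPM in capillary VECs, at 133 and 957 CPM in venous VECs and at 101 and 274 CPM in arterial VECs, and the log2 ratios were 0.76, 2.85 and 1.43. LECs went from 104 to 258 CPM (log2 ratio 1.31, 0.99 to 1.64) and VSMCs from 382 to 703 CPM (0.88, 0.83 to 0.93). Non-myelinating Schwann cells were at 161 and 322 CPM (log2 ratio between 0.58 and 1.43). Fibroblasts went from 203 to 279 CPM, a log2 ratio of 0.46 that did not reach 0.5. By subcluster the ratio was 0.64 in Dio2-led, 0.72 in Comp-led and 0.355 in Clec3b-led fibroblasts. The Col4a2 share of the UMIs of the pair was therefore higher in AngII+HS in several classes. It was 27.8% (24.97 to 30.7) and 36.0% (33.7 to 38.4) in arterial VECs, 39.1% (38.7 to 39.6) and 49.7% (48.6 to 50.9) in VSMCs, and 30.8% (29.7 to 31.9) and 39.8% (39.1 to 40.5) in fibroblasts. In venous VECs it was 37.3% (31.9 to 42.9) and 38.1% (36.9 to 39.4), with overlapping intervals.

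For Col4a1 the difference in venous VECs was larger in 1 of their subclusters than in the other. Col4a1 in the Csf3- and Ehd3-led subcluster (95 and 256 cells) went from 283 to 1713 CPM, a log2 ratio of 2.59 (2.37 to 2.83). In the Adarb2- and Gpm6a-led subcluster (70 and 92 cells) the same gene was at 92.9 and 214 CPM (26 and 52 UMIs), with an interval of the log2 ratio from 0.49 to 1.94. The Col4a1 intervals of both subclusters did not overlap. Those of Col4a2 did, with log2 ratios of 2.61 (2.33 to 2.91) in the Csf3- and Ehd3-led cells and 2.15 (1.28 to 3.11) in the others. The Col4a1 log2 ratio of all venous VECs, 2.80, lay above that of each subcluster. The Csf3- and Ehd3-led cells were 95 of 165 venous VECs in Control and 256 of 348 in AngII+HS. A venous ratio with the subclusters weighted as in Control was not computed. The venous marker list was lower in the venous VECs of AngII+HS, with a summed level of 7966 and 5844 CPM in Control and AngII+HS, and the capillary list stood there at 7673 and 8094 CPM. The part of this difference in the collagen IV ratio was not tested. Each of the arterial subclusters had a Col4a1 log2 ratio between 0.82 and 0.99. Smooth muscle markers in VECs summed to 880 and 807 CPM, fibroblast markers to 264 and 579 CPM and pericyte markers to 175 and 148 CPM. Neutrophil markers summed to 11.0 and 197 CPM in VECs and erythroid markers to 18.7 and 534 CPM, and the part of these lists in the ratios was not tested. For comparison, the summed smooth muscle list reached 28363 and 42440 CPM in VSMCs.

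**Figure D3:**
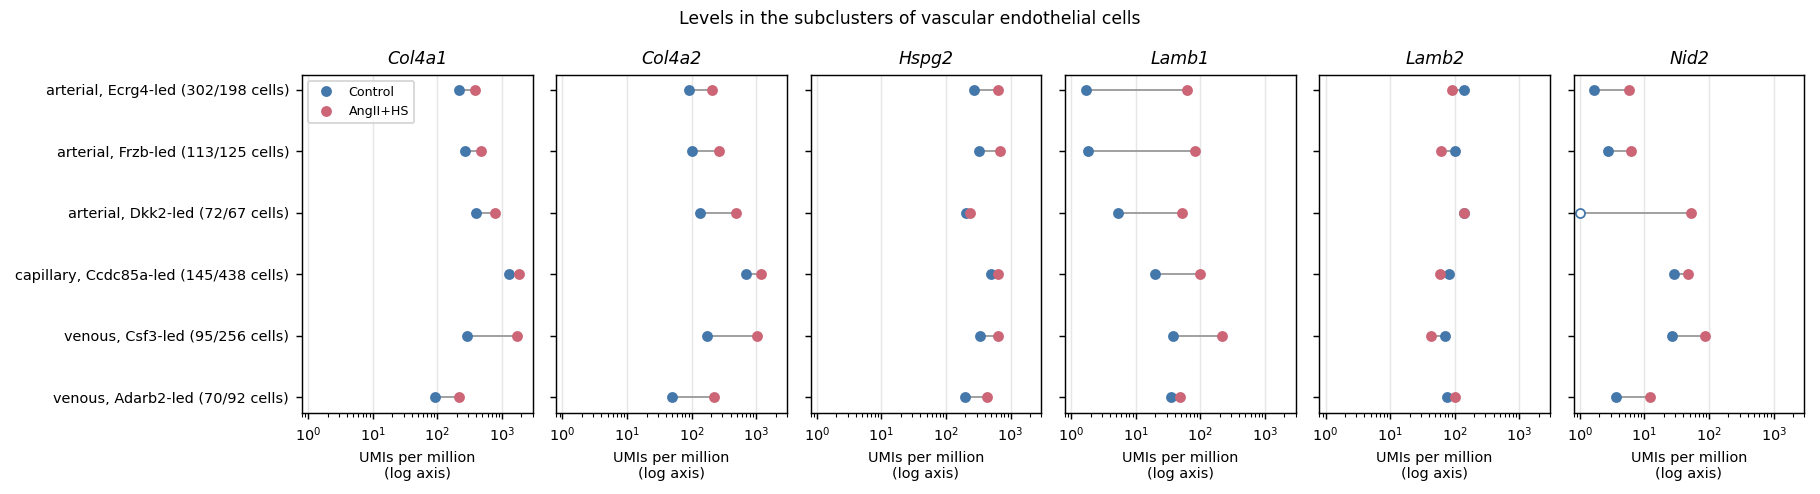
Levels of 6 genes (CPM, log axis) in the 6 subclusters of VECs, in Control (blue) and AngII+HS (red), with the number of cells in Control and AngII+HS after each name and an open point for 0 UMIs. Lamb1 was low in the arterial subclusters of Control and above 50 CPM in each of them in AngII+HS, and in the Adarb2-led venous subcluster the log2 ratios were 0.46 for Lamb1 and 0.45 for Lamb2, from 10 to 25 UMIs per point.

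The laminin α chains differed between classes far more than between libraries. Lama4 was highest in LECs, at 405 CPM (371 to 442) in Control and 329 CPM (292 to 370) in AngII+HS, and lowest in arterial VECs, at 38.2 and 37.2 CPM. Capillary VECs were at 200 and 155 CPM (log2 ratio −0.37, −0.69 to −0.05) and venous VECs at 164 and 172 CPM (0.07, −0.21 to 0.35). Non-myelinating Schwann cells stood at 275 and 246 CPM, myelinating Schwann cells at 201 and 212 CPM, VSMCs at 103 and 89.0 CPM and fibroblasts at 81.4 and 56.7 CPM. The ratio was below −0.5 only in fibroblasts among the 9 classes (−0.52, −0.64 to −0.40). Within fibroblasts it was −0.54 (−0.72 to −0.36) in Clec3b-led cells (745 and 860). Dio2-led cells (1477 and 1597) were at −0.24 and Comp-led cells (385 and 2100) at 0.26, each with an interval that included 0. The part of these cell numbers in the fibroblast ratio was not tested. Over all VECs the log2 ratio of Lama4 was 0.40 (0.22 to 0.58), but it was −0.10 with the subtypes weighted as in Control, and the arterial subtype, with little Lama4, made up less of the AngII+HS cells.

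Lama5, the other α chain of endothelial laminins, had a different order, with its highest Control level in VSMCs at 88.0 CPM (85.5 to 90.6) and the next in arterial VECs at 70.4 CPM (60.7 to 81.3). Fibroblasts held the least, 4.51 CPM (3.28 to 6.05) in Control, beside 6.19 CPM (2.27 to 13.5) in T and B cells. In AngII+HS the fibroblast interval, 5.59 to 7.51 CPM, lay above that of T and B cells, 1.08 to 3.89 CPM. In arterial VECs Lama5 was at 50.2 CPM in AngII+HS, a log2 ratio of −0.49 (−0.84 to −0.14). This was just inside the limit of −0.5, and the ratio lay between −0.74 and −0.40 over the processing settings. The log2 ratios in capillary and venous VECs were 0.33 and 0.49, with intervals that included 0. Of the UMIs of the Lama4 and Lama5 pair, Lama5 made up 64.8% (59.0 to 70.3) in Control arterial VECs, 23.4% (17.3 to 30.5) in capillary VECs, 20.3% (14.7 to 26.9) in venous VECs and 5.29% (3.55 to 7.56) in LECs. The shares in AngII+HS were 57.4%, 33.1%, 25.5% and 6.02%, so that arterial VECs remained the endothelial class with the highest Lama5 share.

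Lama2, the α chain known for muscle and nerve, was looked at in every class beside these. It was near background in VECs (3.35 and 1.52 CPM) and LECs (2.43 and 1.17 CPM). Fibroblasts went from 622 to 224 CPM, a log2 ratio of −1.48 (−1.53 to −1.43), and non-myelinating Schwann cells from 656 to 404 CPM (−0.70, −0.94 to −0.46). VSMCs were at 54.0 and 26.2 CPM (−1.05, −1.31 to −0.79), pericyte-like cells at 115 and 52.0 CPM (−1.14, −1.94 to −0.37) and myelinating Schwann cells at 409 and 304 CPM (−0.43, −1.03 to 0.17). In each of these 5 classes Lama2 was lower in AngII+HS, and the interval for myelinating Schwann cells included 0. Lama2 made up 88.4% of the Lama2 and Lama4 UMIs of Control fibroblasts and 79.8% of those of AngII+HS.

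The β chains gave the largest change within the set. Lamb1, the β1 chain, was barely detected in Control arterial VECs, with 6 UMIs over 487 cells (2.27 CPM, 0.83 to 4.94), and reached 150 UMIs over 390 cells in AngII+HS (69.8 CPM, 59.1 to 81.9). The log2 ratio was 4.94 (3.78 to 6.41), against 1.38 CPM of Lamb1 in T and B cells of AngII+HS. Capillary VECs went from 19.9 to 98.8 CPM (2.31, 1.50 to 3.26) and venous VECs from 37.4 to 197 CPM (2.40, 1.89 to 2.95). Lamb2, the β2 chain, was lower in the same cells, at 123 and 83.7 CPM in arterial VECs (−0.56, −0.83 to −0.29), 82.6 and 59.2 CPM in capillary VECs (−0.48, −0.99 to 0.04) and 72.5 and 49.0 CPM in venous VECs (−0.57, −1.02 to −0.10). Among these subtypes only the capillary interval included 0. By subcluster the Lamb2 ratio was −0.62 in Ecrg4-led, −0.72 in Frzb-led and −0.03 in Dkk2-led arterial VECs. Venous VECs were at −0.74 in Csf3-led and 0.45 in Adarb2-led cells. The Dkk2-led and Adarb2-led intervals included 0. With equal weight per cell the venous Lamb2 ratio was −0.09. In T and B cells Lamb2 had a log2 ratio of −0.58 (−1.53 to 0.48). Less the change in T and B cells, the Lamb2 difference was −35.6 CPM (−55.2 to −16.0) in arterial VECs. It was −19.3 CPM (−45.6 to 7.02) in capillary and −19.4 CPM (−40.7 to 1.86) in venous VECs. Lamb2 thus made up 98.2% (96.1 to 99.3) of the β chain UMIs of arterial VECs in Control and 54.5% (49.0 to 60.0) in AngII+HS. The corresponding shares were 80.6% (69.1 to 89.2) and 37.4% (31.2 to 44.0) in capillary VECs and 66.0% (55.7 to 75.3) and 19.9% (16.7 to 23.5) in venous VECs. In each subtype the intervals of Control and AngII+HS did not overlap.

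**Figure D4:**
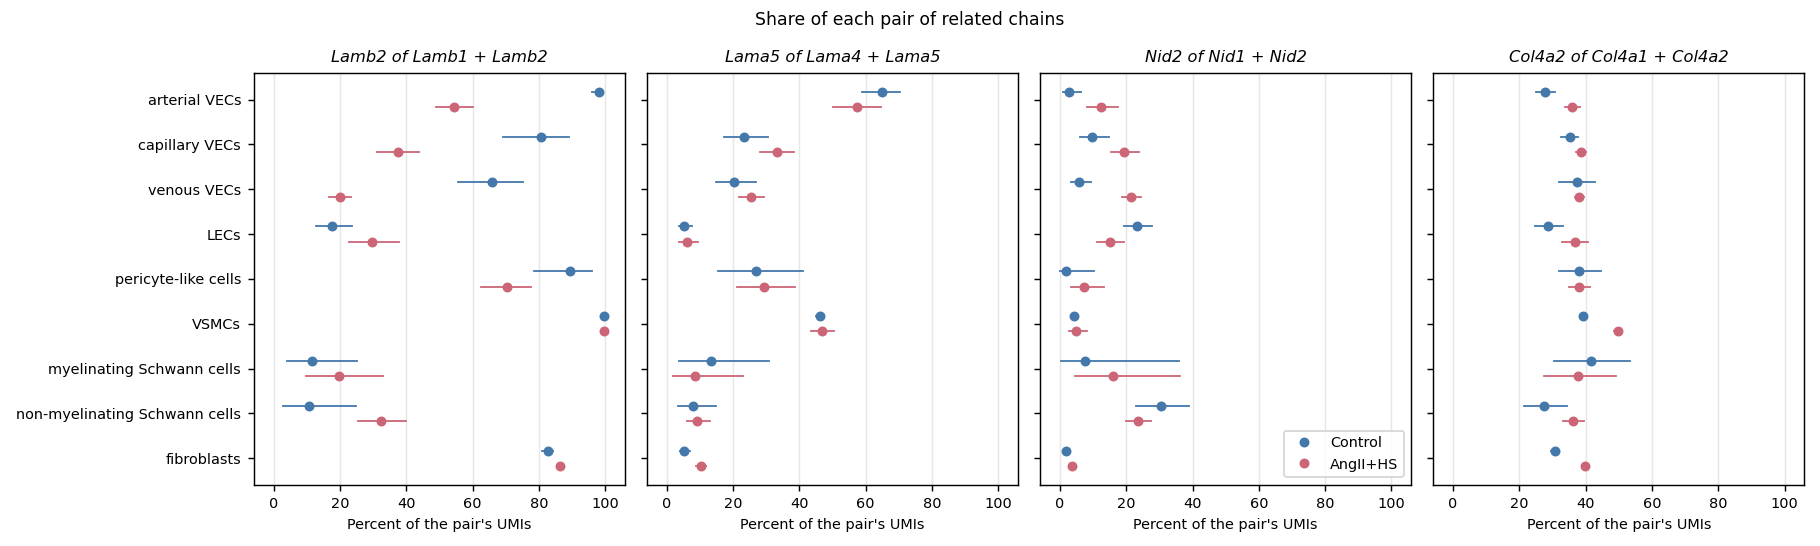
Share of the second gene in the UMIs of each pair of related chains (percent) in 9 cell classes, with Control in blue and AngII+HS in red and 95% exact binomial intervals. The Lamb2 share was lower in AngII+HS in the 3 VEC subtypes and in pericyte-like cells, whereas VSMCs stayed above 99% in both libraries.

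Outside the VECs, Lamb1 was above 0.5 in pericyte-like cells (6 and 44 UMIs) and in VSMCs (17 and 4 UMIs), where the interval included 0. Control counts of Lamb1 were also low in arterial and capillary VECs, at 6 and 13 UMIs. VSMCs expressed almost no Lamb1, with 17 UMIs over 4901 Control cells and 4 over 497 AngII+HS cells, and their Lamb2 level went from 156 to 355 CPM, a log2 ratio of 1.18 (1.11 to 1.26). The 4 VSMC subclusters had Lamb2 log2 ratios between 0.85 and 1.36. LECs expressed Lamb1 at 136 and 124 CPM (−0.13, −0.49 to 0.23) and Lamb2 at 29.1 and 52.7 CPM (0.86, 0.19 to 1.53). Myelinating Schwann cells had the highest Lamb1 level of the 9 classes in Control, at 294 CPM (208 to 403), and were at 271 CPM (195 to 368) in AngII+HS. Non-myelinating Schwann cells were at 99.6 and 104 CPM of Lamb1, and their Lamb2 went from 11.7 to 49.6 CPM, a log2 ratio of 2.08 (0.64 to 4.01) that rests on 4 UMIs in Control. That Control level was close to the 12.4 CPM of T and B cells. Pericyte-like cells went from 19.1 to 91.6 CPM of Lamb1 (2.26, 1.02 to 3.78), again from 6 UMIs in Control, with Lamb2 at 163 and 219 CPM (0.42, −0.07 to 0.94). Fibroblasts were at 42.6 and 35.9 CPM of Lamb1 and at 203 and 230 CPM of Lamb2. Their subclusters differed. In Dio2-led fibroblasts Lamb1 went from 19.1 to 3.98 CPM (−2.26, −2.89 to −1.66) and Lamb2 from 226 to 356 CPM (0.65, 0.55 to 0.76). The log2 ratios of Lamb1 and Lamb2 were 0.40 and −0.185 in Comp-led and −0.30 and 0.28 in Clec3b-led fibroblasts.

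Lamc1, the γ1 chain common to these laminins, was at 91.9 CPM in Control VECs and 193 CPM in AngII+HS VECs, a log2 ratio of 1.07 (0.90 to 1.24). Venous VECs went from 131 to 283 CPM (1.11, 0.82 to 1.41), arterial VECs from 70.1 to 109 CPM (0.64, 0.36 to 0.93) and capillary VECs from 127 to 173 CPM (0.45, 0.09 to 0.83). LECs (148 and 261 CPM, 0.82) and pericyte-like cells (153 and 293 CPM, 0.94) were also above 0.5, but the pericyte-like ratio was −0.55 when double the number of doublets was removed. VSMCs were at 129 and 131 CPM (0.02, −0.10 to 0.14) and non-myelinating Schwann cells at 258 and 252 CPM (−0.03, −0.39 to 0.33). Fibroblasts moved the other way, from 268 to 187 CPM (−0.52, −0.59 to −0.45). By subcluster the log2 ratio was −0.70 in Clec3b-led, −0.28 in Comp-led and −0.16 in Dio2-led fibroblasts.

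Of the nidogens, Nid2 was higher in the arterial and venous VECs of AngII+HS, whereas the log2 ratio of Nid1 stayed within ±0.5 in each VEC subtype. Nid2 in arterial VECs went from 1.89 to 12.6 CPM (5 and 27 UMIs, log2 ratio 2.73, 1.33 to 4.46) and in venous VECs from 19.3 to 79.1 CPM (17 and 181 UMIs, 2.04, 1.32 to 2.85). In the arterial subclusters the Nid2 UMIs were 0 and 16 in the Dkk2-led, 2 and 5 in the Ecrg4-led and 3 and 6 in the Frzb-led cells. The intervals of the ratio in the Ecrg4-led and Frzb-led cells included 0. The Adarb2-led venous cells held 1 and 3 Nid2 UMIs. Capillary VECs were at 29.0 and 47.7 CPM (0.72, −0.03 to 1.53). Nid1 was at 65.9 and 89.3 CPM in arterial VECs (0.44, 0.14 to 0.74), 271 and 199 CPM in capillary VECs (−0.44, −0.72 to −0.17) and 308 and 288 CPM in venous VECs (−0.10). The arterial Nid1 ratio lay between 0.40 and 0.66 over the processing settings. By arterial subcluster Nid1 stood at 0.74 (0.23 to 1.25) in Ecrg4-led, 0.69 (0.01 to 1.39) in Dkk2-led and 0.03 in Frzb-led cells. The Nid2 share of nidogen UMIs was 5.88% (3.46 to 9.25) in venous VECs of Control and 21.6% (18.8 to 24.5) in those of AngII+HS. LECs, which had more Nid2 than VECs in Control, were at 77.7 and 58.6 CPM (−0.41, −0.93 to 0.10). Non-myelinating Schwann cells had the highest Nid2 level of the 9 classes in both libraries, at 126 CPM (91.2 to 170) and 110 CPM (91.5 to 132). Its interval overlapped that of LECs in Control and that of venous VECs in AngII+HS. Fibroblasts held the most Nid1 in Control and went from 562 to 322 CPM (−0.80, −0.85 to −0.75), whereas VSMCs were at 39.5 and 59.3 CPM (0.59, 0.41 to 0.77). By fibroblast subcluster the Nid1 ratio was −0.82 in Clec3b-led, −0.58 in Comp-led and −0.29 in Dio2-led cells. Comp-led cells numbered 385 in Control and 2100 in AngII+HS, and the part of such numbers in the fibroblast ratio was not tested. Nid2 in VSMCs, at 1.73 and 3.09 CPM, was at the level of T and B cells.

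Hspg2, which encodes perlecan, was higher in AngII+HS in the arterial and venous endothelium. Arterial VECs went from 282 to 601 CPM (1.09, 0.96 to 1.22) and venous VECs from 294 to 624 CPM (1.08, 0.89 to 1.28), while capillary VECs were at 495 and 635 CPM (0.36, 0.17 to 0.54). In AngII+HS the capillary, venous and arterial levels had neighbouring intervals that overlapped. VSMCs went from 317 to 580 CPM (0.87, 0.81 to 0.93). In LECs the level was 300 and 266 CPM (−0.17, −0.42 to 0.07) and in pericyte-like cells 124 and 117 CPM (−0.10, −0.71 to 0.53), the lowest of the 9 classes. Among arterial subclusters the Dkk2- and Alpl-led cells (72 and 67) stood apart, with 205 and 232 CPM (0.18, −0.31 to 0.66), while the Ecrg4-led and Frzb-led subclusters had log2 ratios of 1.25 and 1.08.

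By class, 6 of 10 genes lay above 0.5 in arterial VECs, where 17.6% of 11055 genes did, and 1 lay below −0.5, where 15% of all genes did. The counts were 4 and 0 in capillary VECs, against 23.2% and 17.6% of 8591 genes. In venous VECs they were 6 and 1, against 33.5% and 18% of 9809 genes. LECs had 4 above (Col4a1, Col4a2, Lamb2 and Lamc1) and 0 below, against 24.8% and 14.3% of 8638 genes. In pericyte-like cells 9 of the 10 genes reached 20 UMIs, of which 6 lay above and 0 below, against 24.5% and 20.1% of 5828 genes. With double the number of doublets removed, 2 of 6 lay above and 2 below. VSMCs had 6 above (Col4a2, Lamb1, Lamb2, Nid1, Nid2 and Hspg2, of which Lamb1 and Nid2 were at background level) and 0 below, against 13.8% and 28.5% of 15308 genes.

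In Schwann cells and fibroblasts the counts were near the shares of all genes. In myelinating Schwann cells 7 genes could be measured, 1 of them above 0.5 (Nid1, 92.7 and 139 CPM, from 12 and 21 UMIs, 0.58, −0.51 to 1.74) and 0 below, against 19.9% and 22% of 2983 genes. Different subclusters made up most of that class, since the Mt3-led cells numbered 3 and 84 and the Ankfn1-led cells 50 and 12 in Control and AngII+HS. Non-myelinating Schwann cells had 2 above (Col4a2 and Lamb2) and 0 below, against 21.9% and 16.6% of 8288 genes. Within them the Adamtsl1- and Has2-led cells (21 and 77) had Col4a2 at 195 and 606 CPM (1.64, 0.93 to 2.44), while the Ntrk3-led cells (52 and 190) were at 166 and 204 CPM (0.29) and the Fabp7-led cells (23 and 86) at 133 and 127 CPM (−0.06). Fibroblasts had 1 above (Lama5, the gene with their lowest level in Control, 0.53, 0.05 to 1.04) and 3 below (Lama4, Lamc1 and Nid1), against 14.6% and 23.5% of 15879 genes.

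Mural cells outside the named classes held much collagen IV. A Pln-led subcluster (151 and 129 cells) was at 813 and 1023 CPM of Col4a1 (0.33, 0.19 to 0.47) and at 246 and 403 CPM of Lamb2 (0.71, 0.47 to 0.95). Mural cells with low contractile genes (487 and 339 cells) were at 753 and 958 CPM of Col4a1 (0.35), 527 and 991 CPM of Col4a2 (0.91, 0.80 to 1.03), 229 and 518 CPM of Lamb2 (1.18, 1.01 to 1.34) and 434 and 890 CPM of Hspg2 (1.04, 0.91 to 1.16). Lama5 was at 114 and 178 CPM (0.64, 0.28 to 0.99) in the Pln-led cells. It was at 128 and 179 CPM (0.48, 0.21 to 0.74) in the low-contractile cells. Other genes were not higher there. Nid1 was at −0.21 (−0.58 to 0.16) and Nid2 at −0.85 (17 and 4 UMIs) in the low-contractile cells. Hspg2 was at −0.13 (−0.39 to 0.12) in the Pln-led cells, whose Nid1 was at 0.58. Counting the low-contractile cells with the VSMCs left 6 genes above 0.5.

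The shares of cells with a UMI were compared at equal depth. With every cell thinned to 1000 UMIs and shallower cells left out, Lamb1 was detected in 0.169% of Control arterial VECs and 5.12% of those of AngII+HS (1.03% and 23.6% before thinning), and in 2.67% and 12.2% of venous VECs (15.2% and 39.9% before). The thinned share of Col4a1 was 15.0% and 48.5% in venous VECs and 59.0% and 71.5% in capillary VECs, against 2.19% and 2.54% in T and B cells. Lama4 in venous VECs had levels of 164 and 172 CPM but thinned shares of 14.9% and 12.2%. Median depths were 4675 and 4588 UMIs in venous VECs, 3425 and 2429 in capillary VECs, and 4533 and 4748 in arterial VECs. The thinning left out 10, 4 and 1 of the arterial, capillary and venous VECs of Control and 13, 55 and 13 of those of AngII+HS.

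Genes around the pathway moved in both directions in VECs. Of 14 other basement membrane chains 13 were measured, of which 3 lay above 0.5 and 7 below −0.5 in pooled VECs, against 21% and 17.4% of all genes. The counts were 3 and 3 of 8 in arterial VECs, 2 and 0 of 4 in capillary VECs and 3 and 3 of 7 in venous VECs. In pooled VECs Col15a1, the multiplexin known for the basement membrane of vessels, went from 25.1 to 269 CPM (3.42, 3.14 to 3.72). Col18a1, the precursor of endostatin, went from 91.7 to 348 CPM (1.92, 1.77 to 2.08). Among the subtypes, Col18a1 was above 0.5 in each. Col15a1 was above 0.5 in capillary and venous VECs but was not among the arterial genes counted above it. Col4a5 was at 15.8 and 15.7 CPM (−0.01) in pooled VECs, but its ratio was above 0.5 in arterial VECs and below −0.5 in venous VECs. The α3(IV) and α4(IV) chains were lower, Col4a3 at 32.8 and 5.23 CPM (−2.65, −3.26 to −2.08) and Col4a4 at 65.8 and 13.0 CPM (−2.34, −2.72 to −1.97). These chains were mainly arterial, and within arterial VECs they were at 51.1 and 13.0 CPM (−1.97) and at 102 and 33.5 CPM (−1.60).

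Among 15 genes that fold, secrete or crosslink collagen IV, 5 lay above 0.5 and 3 below −0.5 in pooled VECs, against 21% and 17.4% of all genes. The counts were 7 and 1 of 14 in arterial VECs, 3 and 3 of 13 in capillary VECs and 6 and 3 of 14 in venous VECs. Pxdn, the peroxidase that forms sulfilimine crosslinks in collagen IV, went from 44.5 to 116 CPM (1.39, 1.15 to 1.63). Sparc, a collagen-binding matricellular protein, went from 963 to 2206 CPM (log2 ratio between 1.15 and 1.25) and the collagen chaperone Serpinh1 from 365 to 617 CPM (0.76, 0.67 to 0.85). The prolyl 4-hydroxylase subunits were lower, P4ha1 at 176 and 108 CPM (−0.70, −0.86 to −0.55) and P4ha2 at 70.1 and 33.9 CPM (−1.05, −1.31 to −0.78), as was the secretory cargo receptor Mia3 at 121 and 83.4 CPM (−0.54, −0.72 to −0.35). Mia3 lay within ±0.5 in each subtype, and P4ha1 was at −0.23 in arterial VECs, with an interval that included 0, but at −1.38 in capillary and −1.06 in venous VECs. P4ha2 was below −0.5 in each subtype. Pxdn and Sparc were above 0.5 in arterial and venous VECs and at −0.06 and 0.35 in capillary VECs. Among the subtypes, Serpinh1 was above 0.5 in venous VECs only. Sparc was also higher in VSMCs (1655 and 4199 CPM, 1.34) and fibroblasts (3545 and 9220 CPM, 1.38). In VSMCs 8 of the 15 genes lay above 0.5 and 0 below, against 13.8% and 28.5% of all genes.

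Of 10 receptor genes 1 lay above 0.5 and 5 below −0.5 in pooled VECs, against 21% and 17.4% of all genes. Within subtypes the counts were 2 and 1 of 10 in arterial VECs, 0 and 2 of 7 in capillary VECs and 1 and 3 of 8 in venous VECs, and the median log2 ratio was −0.43 in pooled VECs and 0.06 in arterial VECs. The integrin α2 gene Itga2, a collagen receptor, went from 8.38 to 36.5 CPM (2.12, 1.60 to 2.68) and Itga6, a laminin receptor, from 197 to 276 CPM (0.48, 0.36 to 0.61). The Itga2 ratio was 2.01 in arterial and 1.91 in venous VECs but −0.34 in capillary VECs, with an interval that included 0. Itga6 was at 0.98 in arterial, −0.53 in capillary and 0.22 in venous VECs. Itga1 was at 277 and 279 CPM (0.01). Bcam, the Lutheran receptor that binds laminin α5, went from 322 to 100.4 CPM (−1.68, −1.82 to −1.54) and was lower in arterial VECs (401 and 137 CPM) and venous VECs (232 and 72.6 CPM). Ddr1, a collagen receptor kinase, was at 33.7 and 19.6 CPM (−0.79, −1.15 to −0.42) and Itgb4 at 73.5 and 45.2 CPM (−0.70, −0.94 to −0.46) in pooled VECs. In arterial VECs, which held most of their UMIs, Ddr1 was at 0.01 and Itgb4 at −0.03, and Itgb4 was at −1.32 in venous VECs.

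**Figure D5:**
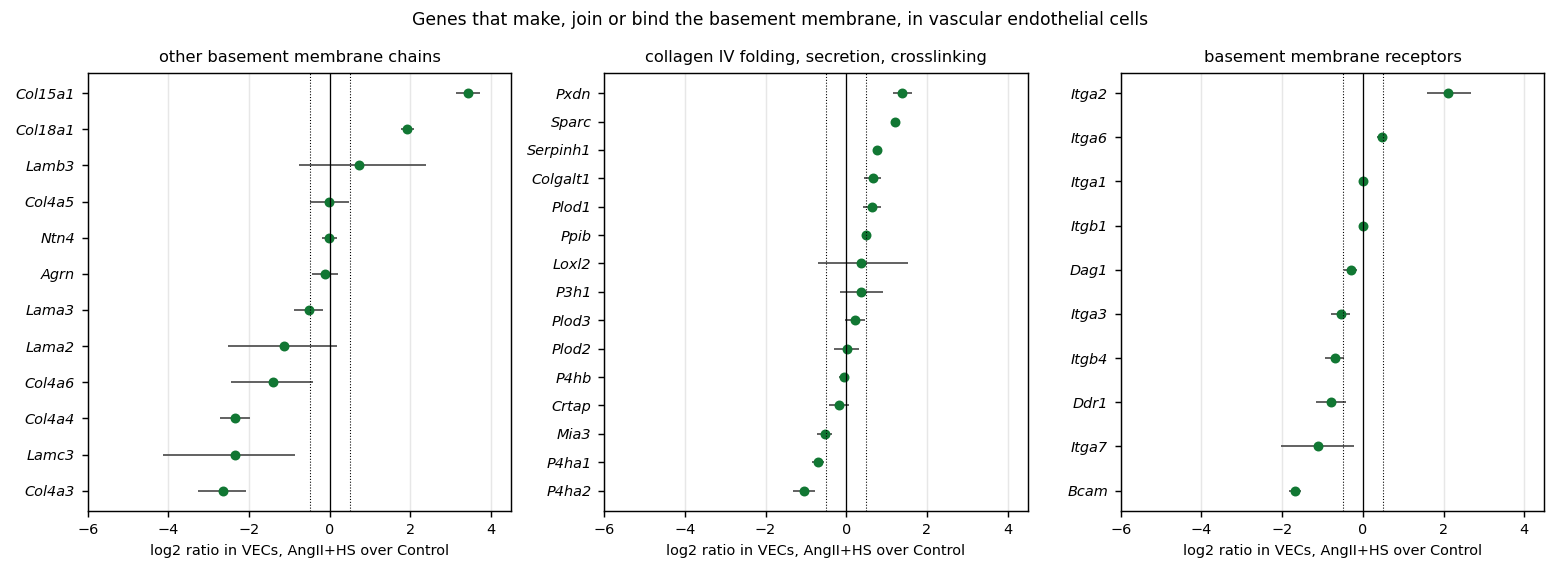
Log2 ratio of AngII+HS over Control in VECs (horizontal axis) for measured genes of 3 lists (1 gene is not shown), with 95% counting intervals as bars and dotted lines at −0.5 and 0.5. Col15a1, Col18a1, Pxdn, Sparc and Itga2 lay to the right and Col4a3, Col4a4, P4ha2 and Bcam to the left.

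The patterns over classes were compared by the Pearson r of log2 levels (with 5 CPM added) over 18 points, the 9 classes in each library, against 10967 genes. The points of a library share its depth and free RNA, so the values are descriptive. Col4a2 was the gene most like Col4a1 (r = 0.956), and Col4a1 the gene most like Col4a2. The next were the adenine nucleotide carrier Slc25a5 (0.877 and 0.921) followed by Chchd2 for Col4a1 (0.819) and Uqcrq for Col4a2 (0.849). For Lama4 the closest were Cobll1 (0.850), Sh3pxd2a (0.834) and Raly (0.832), and for Lama5 Actn4 (0.887), Cdc42ep3 (0.830) and Cds2 (0.827). Within the set, Nid2 was closest to Lama4 (0.716) and furthest from Lamb2 (−0.756), and Lamb1 and Lamb2 had r = −0.646.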

How the data were processed

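Single cells of the aorta were sequenced with 10x Genomics 3′ chemistry in 2 libraries. The matrices deposited by the authors hold raw UMI counts per gene and cell, made with Cell Ranger (version 8.0.1 in the matrix header). GRCm39 is the build in the study's methods and mm10 the build in the submitters' processing notes, and the feature IDs of all 10 genes, and 33185 of 33696 in all, were found in GENCODE vM39. The gene symbols are the second column of the deposited feature files. The barcode files were deposited too, but the length of each fitted the matrix of the other library, so barcodes were not used and each matrix was taken under the sample it was deposited with. Both barcode lists share 67 barcodes.

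Cells with at least 500 UMIs, 200 genes and under 20% mitochondrial UMIs were kept, which left 11288 of 11448 barcodes in Control and 24560 of 24804 in AngII+HS. Doublets were ranked with Scrublet (scanpy 1.11.5) and removed at 0.8% per 1000 cells, 1019 and 4826 cells. The kept cells held 75294050 and 80581691 UMIs. They were integrated and clustered in Seurat 5.3.0 (2000 variable genes without the genes described here, 30 components, resolution 0.8), and VECs, mural cells and Schwann cells were clustered again (20 components, resolution 0.4). Clusters were named from marker lists. The limits that set pericyte-like and low-contractile mural cells apart were chosen after seeing the clusters, and the latter were 4.74% and 1.72% of the cells of Control and AngII+HS.

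UMIs were summed per class and library. Intervals are exact Poisson for levels, conditional binomial for log2 ratios and Clopper-Pearson for shares, at 95%. Genes with at least 20 UMIs over both libraries of a class were measured and those beyond ±0.5 in log2 ratio counted. No test was made, as each condition had 1 library. The calculation was tested on simulated counts. Named were all 10 genes and Lama2 in every class. Each of 3 lists gave the 3 genes at the top and the 3 at the bottom of its order by log2 ratio in VECs, out of those counted 50 times or more there. For the chains of collagen IV and the laminin α chains the 3 genes with the most similar profile (at least 500 UMIs) were named. The members and lists were chosen with earlier results of these data known. The ratios were recomputed under 10 other settings, TMM factors from edgeR 4.0.16 among them, and thinning for the shares of cells. Proteins were not analysed here, and 1 gene that the rule for named genes gives is not reported here.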

Additional observations from a re-analysis of the deposited data

Results flagged for a closer look

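Lamb2, Lamc1 and Nid1 were higher in AngII+HS in some classes and lower in others, each with a counting interval that excluded 0. These differences between classes were not tested, since each class has 1 library per condition. Lamb2 had its highest log2 ratio in non-myelinating Schwann cells, 2.08, from 4 UMIs in Control, and its lowest in venous VECs, −0.57. The Control level in those Schwann cells was close to that of T and B cells. With equal weight per cell the venous ratio was −0.09. Lamc1 stood at 1.11 in venous VECs, where it lay between 1.065 and 2.607 over the settings. In fibroblasts it stood at −0.52 and lay between −1.38 and −0.24. The values of 2.607 and −1.38 came with the T and B cell level subtracted, and for Lamc1 that level was not background. Nid1 stood at 0.59 in VSMCs and at −0.80 in fibroblasts, where it lay between −0.98 and −0.46 over the settings. In the low-contractile mural cells Nid1 was at −0.21 (−0.58 to 0.16).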

How the results depend on the processing

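Of 951 log2 ratios recomputed under 10 other settings, 895 stayed within their own counting interval, 54 left it, and 2 that lay beyond ±0.5 changed sign. At resolutions 0.4 and 1.2 the VEC, LEC and Schwann classes held the same numbers of cells and UMIs as at 0.8. Those settings could not move the ratios of these classes, and they are among the settings counted here. Lamc1 in pericyte-like cells went from 0.94 to −0.55 when double the number of doublets was removed, where 2 of 6 measured genes were above 0.5 and 2 below −0.5 in place of 6 and 0 of 9, in 31 and 8 cells. Nid2 in VSMCs went from 0.84 to −0.20 with the T and B cell level subtracted. In fibroblasts, 2 genes rather than 1 were above 0.5 with no doublets removed, with double the number removed and with TMM factors, and 0 with equal weight per cell. Below −0.5 were 3 genes, but 2 with double the doublets removed, 1 with TMM factors and 0 with equal weight per cell. In myelinating Schwann cells 0 rather than 1 were above 0.5 without integration. In arterial VECs 2 genes rather than 1 were below −0.5 with double the doublets removed and with TMM factors. The same held with mitochondrial genes left out of the CPM and with equal weight per cell. In capillary VECs up to 6 genes rather than 4 were above 0.5 (equal weight per cell) and up to 2 rather than 0 below −0.5 (without integration). In LECs 3 genes rather than 4 were above 0.5 with no doublets removed. Below −0.5 in LECs were 2 genes with double the doublets removed and 1 with TMM factors, rather than 0. Col4a1 in LECs lay between 0.39 and 1.02 over the settings. The cause was not tested. Over the 10 settings 6 to 7 genes were above 0.5 in VECs, arterial VECs and venous VECs. Lamb1 in arterial VECs lay between 4.91 and 5.10, Col4a1 in venous VECs between 2.50 and 2.90 and Lamb2 in venous VECs between −0.61 and −0.09, the latter with equal weight per cell. Lamc1 in VECs reached 6.57 with the T and B cell level subtracted, since that level, 105 CPM in Control, was above the 91.9 CPM of Control VECs. Of 20 ratios with the low-contractile cells counted as VSMCs or with VEC subtypes weighted as in Control, both chosen after seeing the data, 8 stayed within their interval and 12 left it, and 6 genes were above 0.5 in each. No paired analysis was possible because each condition has 1 library. Counting intervals cover no variation between mice, and few UMIs limit myelinating Schwann and pericyte-like cells.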

Other observations

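Genes of the set also appeared in cells that are not known to rest on a basement membrane. Lamc1 was at 84.9 and 53.1 CPM in macrophages of Control and AngII+HS, and was detected in 25.8% and 20.1% of T and B cells. Nid2 in macrophages went from 17.4 CPM (38 UMIs) in Control to 1.37 CPM (27 UMIs) in AngII+HS, a log2 ratio of −3.67 (−4.44 to −2.92), although T and B cells of Control held 0 Nid2 UMIs. Nid2 was detected in 7.04% of the 497 Control macrophages and in 0.58% of the 4488 AngII+HS macrophages. Their median depths were 4087 and 4056 UMIs.

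Haemoglobin and Alas2 UMIs in capillary VECs summed to 20 in Control and 3058 in AngII+HS, where 4 of 438 cells had more than 1% of their UMIs in these genes.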
